A study of Homo sapiens with 6 samples.

Results

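The proteasome genes, their assembly factors and 3 associated deubiquitinases were measured on day 30 and day 0 of the differentiation of H9 cells into arcuate neurons. H9 is an established line of human embryonic stem cells, and the arcuate nucleus is the part of the hypothalamus that senses hunger and satiety signals. The members were all protein-coding entries whose symbol begins with PSMA to PSMG followed by a digit, together with POMP, ADRM1, UCHL1, UCHL5 and USP14. This gave 55 genes of the 61853 entries in the table, and 50 of them had enough reads to be tested. The rule uses names and no measured values, but it was set with earlier results of these data known. PSMC3IP and PSME3IP1 matched by symbol but are not proteasome subunits, and they are described apart from the rest.

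Total RNA from 3 day 30 libraries and 3 day 0 libraries was sequenced after removal of ribosomal RNA. Day 30 cultures had been carried through serum replacement and N2 medium with SB431542, LDN-193189, purmorphamine and sonic hedgehog, then B-27 with DAPT, and finally BDNF. Day 0 cells were the starting H9 cultures, and every library came from this single unmodified line. The labels do not say whether the 3 libraries of a day came from separate cultures, so p-values measure the spread between these libraries, which may be technical. The day 30 libraries held 9688839, 12924842 and 5013643 counts, against 7758817, 7178453 and 8794008 in the day 0 libraries. Gene positions are those of GENCODE release 29 on build hg38.

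Marker genes of pluripotent cells and of neurons differed between the days in the direction of the labels. All 10 neuronal markers were higher on day 30, with a summed level of 6458 to 8207 CPM (counts scaled to a common library size, with TMM factors) on day 30 against 207 to 245 CPM on day 0. Of 10 arcuate and hypothalamic markers, NPY and AGRP had too few reads to be tested, and the 8 tested were all higher. The 10 summed to 2964 to 4746 CPM in day 30 libraries against 3.20 to 6.37 CPM in day 0 libraries. Most of the day 30 sum came from SST (2077, 2655 and 1530 CPM) and POMC (1771, 1684 and 1113 CPM). All 10 pluripotency markers and all 8 cell cycle markers were lower on day 30. Of other cell types, 3 of 3 tested astroglial, 3 of 5 oligodendroglial and 2 of 2 endothelial markers were lower. Of 5 tested neural progenitor markers, 3 were lower and 1 was higher. Over all genes tested, 36.8% were lower and 39.8% higher. On day 0 GJA1 averaged 908 CPM but GFAP 1.13 CPM, and KDR 191 CPM but PECAM1 0.227 CPM. The falls are therefore not read as a loss of glia or endothelium. The 6 microglial and blood markers summed to at most 3.05 CPM in any library. The 6 markers of mesenchymal cells and fibroblasts, of which 3 of 4 tested were higher, summed to 172, 637 and 4394 CPM in day 30 replicates 1, 2 and 3, against 224 to 333 CPM on day 0. Their part in the results below was not tested. In bulk RNA, fewer cells of a type and less RNA per cell cannot be told apart.

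The 26S proteasome degrades proteins that carry ubiquitin chains. Its 20S core is a barrel of stacked rings, with outer alpha rings that gate the entrance and inner beta rings that hold the proteolytic sites. The 19S regulatory particle caps the barrel, and its base unfolds substrates with a ring of ATPases while its lid removes the ubiquitin. Dedicated chaperones build both particles. In human and mouse cells the transcription factor NFE2L1, also called NRF1, raises the subunit genes together through antioxidant response elements when proteasome activity falls short. In neurons the proteasome takes part in synaptic protein turnover, and in stem cells high proteasome activity has been linked with the pluripotent state.

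RNA of most members was less abundant in the day 30 cultures than in the day 0 H9 cultures. Of the 50 members tested, 44 were lower on day 30 and 2, PSMD9 and UCHL1, were higher, while PSMF1, PSMG4, PSMD10 and USP14 did not pass the test (edgeR quasi-likelihood test, Benjamini-Hochberg adjusted p under 0.05 over all 18040 genes tested). Of all genes tested, 76.6% were called in either direction, 36.8% lower and 39.8% higher. The members' median log2 fold change was -0.97, which is 51.1% of the day 0 level, against a median of 0.08 over all genes tested. At least 2-fold falls were found in 22 members, where 24.7% of all genes tested fell as far. The libraries of the 2 days did not overlap in CPM for 47 members: day 30 lay below day 0 in 44, against 38.2% of all genes tested, and above it in 3 (PSMD9, UCHL1 and USP14), against 41.3%. Together the 55 genes took 0.316%, 0.317% and 0.302% of the counts on day 30 and 0.485%, 0.502% and 0.541% on day 0.

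**Figure D1:**
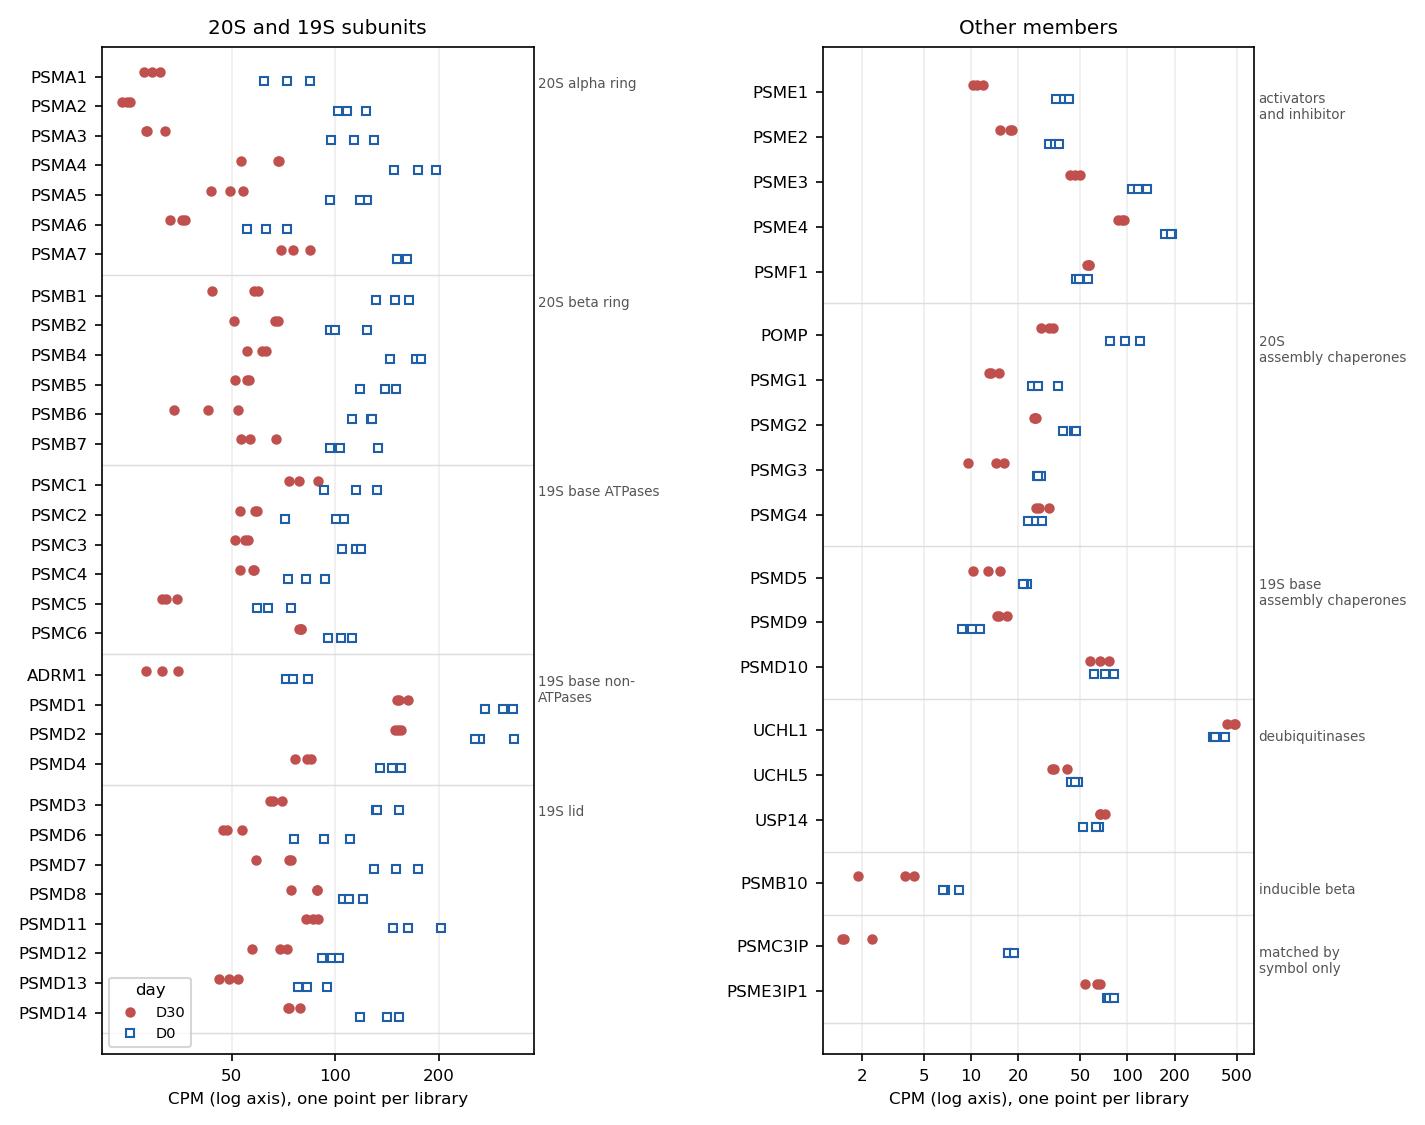
CPM of each of the 50 tested members in each library on a log axis, with 3 day 30 libraries as filled circles and 3 day 0 libraries as open squares, grouped by role. In the left panel every 20S and 19S subunit has its 3 day 30 points left of its 3 day 0 points, while in the right panel PSMF1, PSMG4 and PSMD10 overlap and PSMD9, UCHL1 and USP14 lie to the right.

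The libraries of a day differed in how often they were highest or lowest. Day 0 replicate 3 gave the highest value of its day in 40 of the 50 members, and day 0 replicate 1 gave the lowest in 40. On day 30 the order was less regular, with replicate 1 highest in 26 of 50 and replicate 3 lowest in 34. Replicate 3 is the library with the high mesenchymal level, and it also has the fewest counts (5013643) and the largest TMM factor (1.063). The part of each in its low values was not tested. Without day 30 replicate 3 the counts were 42 lower and 2 higher, with a median log2 fold change of -0.86.

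Promoter sequence was read for the members because of the antioxidant response elements through which NFE2L1 acts. RefSeq (GRCh38.p14) gave a start site for 49 of the 55 members, and the 250 bases before it were searched on both strands. The element core, TGACNNNGC, stood in 14 of 49 member promoters (28.6%), against 11.5% of 15303 protein-coding promoters and 11.0% of all 27305 promoters. It was found in 10 of the 38 members with a promoter that fell and in 2 of the 6 that rose or did not pass the test. By particle, it was found in 1 of 10 genes of the 20S core and 3 of 17 genes of the 19S particle. The 20S gene was PSMB3, which had too few reads to be tested, and the 19S genes were ADRM1, PSMD3 and PSMD12. Most members with the core thus lay outside both sets: PSMB9, PSMD5, PSMD9, PSME1, PSME2, PSME4, PSMG1, PSMG2, UCHL5 and USP14. These sites are shown for members of several roles described below, 5′ to 3′ on the strand that carries the core, with the core in capitals:
ADRM1 at chr20:62302749-62302777, plus strand, 129 bases before the start: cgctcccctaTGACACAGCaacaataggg
PSMD3 at chr17:39980760-39980788, plus strand, 29 bases before the start: tcccctttgtTGACTCGGCcatcggcctg
PSMD12 at chr17:67366724-67366752, minus strand, 157 bases before the start: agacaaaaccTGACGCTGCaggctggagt
PSME1 at chr14:24136098-24136126, plus strand, 78 bases before the start: atggcagggcTGACCCCGCctcctccatc
PSME4 at chr2:53971009-53971037, plus strand, 26 bases before the start: gctctgctggTGACGCTGCagccgccggg
PSMG2 at chr18:12658689-12658717, plus strand, 31 bases before the start: cagtttcccgTGACCCCGCggccgctctg
USP14 at chr18:158521-158549, minus strand, 18 bases before the start: ccactggcgaTGACGCAGCaacacgcaaa
PSMD9 at chr12:121888678-121888706, plus strand, 94 bases before the start: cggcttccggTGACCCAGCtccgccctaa
PSMD9 at chr12:121888631-121888659, minus strand, 141 bases before the start: gcgcctgtggTGACCCGGCaggagtagcg
The first 6 of these sites precede genes that fell on day 30. USP14 did not pass the test, and both PSMD9 sites precede a gene that rose. No core shared bases with another motif searched. Of those other motifs, the ETS core CCGGAAG was found in 22.4% of member promoters against 11.9% of protein-coding ones, and the CCAAT box in 42.9% against 34.8%. The E-box CACGTG was found in 8.16% against 7.84%, the site of nuclear respiratory factor, a protein unrelated to NFE2L1, in 8.16% against 7.70%, and TATAAA in 12.2% against 9.19%. A match is a description of the letters in the window and was not tested as a binding site.

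The 7 tested genes of the 20S alpha ring all fell, with a median log2 fold change of -1.31 and 6 of them falling at least 2-fold. Of all genes tested, 36.8% were lower and 24.7% fell at least 2-fold. The alpha subunits form the gate of the barrel and the surface on which the regulatory particles dock. PSMA2 fell furthest of the 31 tested members that are 20S or 19S subunits. PSMA2 (ENSG00000106588.12, chr7:42916857-42932223, minus strand) had 25.3, 24.8 and 24.0 CPM on day 30, against 102, 109 and 123 CPM on day 0 (log2 fold change -2.17 ± 0.12 SE, adjusted p = 4.24e-08). The 3 day 30 libraries agreed closely, and the lowest day 0 library stood far above them. PSMA3 had 28.5, 31.9 and 28.3 CPM on day 30, against 97.5, 114 and 129.8 CPM on day 0 (log2 fold change -1.94 ± 0.13 SE, adjusted p = 2.60e-07). PSMA4, PSMA1, PSMA5 and PSMA7 had log2 fold changes of -1.44, -1.31, -1.20 and -1.01, and PSMA6 had the smallest fall of the ring at -0.85 (adjusted p = 0.000136). PSMA8, the testis-specific alpha subunit that replaces PSMA7 in spermatocytes, had 1 count in all on each day and was not tested.

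PSMA2, PSMA1 and PSMA6 each share exons on the same strand with an unnamed readthrough gene that has its own entry, as do PSMB10 and PSMD9. The readthrough entry of PSMA2 held 757 counts on day 30 and 2463 on day 0, beside 701 and 2548 counts for PSMA2 itself. How the authors divided reads between such entries was not given in the sources used here. With the readthrough reads added to PSMA2, PSMA1, PSMA6, PSMB10 and PSMD9, 44 members were lower and 2 higher, and the counts were the same with the reads of pseudogene entries added to their parent members. On the opposite strand, exon overlaps with well-covered genes were found among others for PSMC1 (4671 bases with NRDE2), PSMC5 (874 with FTSJ3), UCHL5 (451 with RO60), ADRM1 (244 with LAMA5) and USP14 (110 with THOC1).

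All 6 tested genes of the constitutive beta ring fell, where 36.8% of all genes tested were lower. Their median log2 fold change was -1.39. The active sites belong to 3 of these subunits: PSMB6 the caspase-like, PSMB7 the trypsin-like and PSMB5 the chymotrypsin-like activity. PSMB6 (ENSG00000142507.10, chr17:4796144-4798503, plus strand) had 52.1, 42.8 and 34.0 CPM on day 30, against 112, 127 and 128 CPM on day 0 (log2 fold change -1.50 ± 0.15 SE, adjusted p = 5.41e-06), the largest fall of this ring. PSMB5, the main target of bortezomib, had 55.6, 56.1 and 51.1 CPM on day 30, against 118, 139 and 149.7 CPM on day 0 (log2 fold change -1.32 ± 0.12 SE, adjusted p = 2.29e-06). PSMB7 had 67.2, 56.4 and 53.4 CPM on day 30, against 96.6, 103 and 133 CPM on day 0 (log2 fold change -0.91 ± 0.15 SE, adjusted p = 0.000187). Day 30 lay below day 0 in every library for all 3 catalytic genes. The structural subunits PSMB4 and PSMB1 had log2 fold changes of -1.46 and -1.45, and PSMB2 fell least at -0.78 (adjusted p = 0.000538).

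PSMB3, a structural beta subunit that every 20S particle needs, was close to 0 in all libraries, with no counts on day 30 and 1, 0 and 2 counts on day 0. It was not tested and no fold is given. Among its 22 protein-coding neighbours within 500000 bases, 10 (45.5%) had at most 10 counts over the 6 libraries, against 21.3% of all protein-coding entries. The counts of PSMB3 are therefore given without reading them as absence of its RNA, and their cause was not tested.

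The inducible beta subunits replace the constitutive catalytic ones in immunoproteasomes. PSMB10, which takes the place of PSMB7, was the only one with reads. PSMB10 (ENSG00000205220.12, chr16:67934502-67937087, minus strand) had 4.32, 3.78 and 1.89 CPM on day 30, against 8.41, 6.83 and 6.64 CPM on day 0 (log2 fold change -1.07 ± 0.29 SE, adjusted p = 0.00638). Its counts were 6.51%, 6.69% and 3.71% of those of PSMB7 on day 30 and 8.64%, 6.60% and 5.04% on day 0. The readthrough entry that shares exons with PSMB10 held 176 counts on day 30 and 215 on day 0, beside 103 and 167 for PSMB10 itself, so these shares depend on how its reads are assigned. The log2 ratio of PSMB10 to PSMB7 averaged -4.17 ± 0.45 on day 30 and -3.91 ± 0.39 on day 0 (SD, n = 3 each). The ranges overlapped, and the difference of -0.26 did not pass a 2-sided exact permutation test (p = 0.6, where the smallest possible p is 0.1). Without day 30 replicate 3 the difference was 0.0027, and with the readthrough reads added to PSMB10 it was -0.0082. PSMB8 and PSMB9, the partners of PSMB5 and PSMB6, had 0 counts in all 6 libraries, where a count of 0 allows up to 3 counts a library by counting error. Both lie in the class II region of the major histocompatibility complex, where 31 of 36 protein-coding neighbours within 500000 bases (86.1%) had at most 10 counts and 29 had none. What gave the low counts of that region was not tested. The thymus subunit PSMB11 also had 0 counts, while 5 of its 36 neighbours (13.9%) had at most 10.

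The naming rule caught 18 subunit genes of the 19S particle, and all of them fell, where 36.8% of all genes tested were lower. Their median log2 fold change was -0.89, or 54.1% of the day 0 level. At least 2-fold falls were found in 5 of 18, near the 24.7% of all genes tested that fell as far. The 6 base ATPases, which thread substrates into the core, had the smallest median of the subunit classes at -0.63. PSMC3 had 54.6, 51.3 and 55.9 CPM on day 30, against 105, 115 and 119 CPM on day 0 (log2 fold change -1.07 ± 0.11 SE, adjusted p = 4.74e-06). PSMC6 fell least of them. PSMC6 had 79.3, 79.3 and 78.3 CPM on day 30, against 95.4, 104 and 112 CPM on day 0 (log2 fold change -0.39 ± 0.10 SE, adjusted p = 0.00555), and the groups were still separate. PSMC5, PSMC2, PSMC4 and PSMC1 had log2 fold changes of -1.01, -0.70, -0.56 and -0.49.

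The 4 base subunits without ATPase activity all fell. They hold the scaffold proteins PSMD1 and PSMD2 and the ubiquitin receptors PSMD4 and ADRM1. ADRM1, which also anchors the deubiquitinase UCHL5, had 35.0, 31.5 and 28.3 CPM on day 30, against 72.0, 75.6 and 83.4 CPM on day 0 (log2 fold change -1.28 ± 0.12 SE, adjusted p = 3.85e-06). PSMD1, PSMD2 and PSMD4 had log2 fold changes of -0.96, -0.90 and -0.84. These 4 genes had a median of -0.93.

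All 8 lid genes under the naming rule fell, with a median log2 fold change of -0.89. PSMD14, the metalloprotease that cuts ubiquitin chains from substrates as they enter, had 72.9, 79.2 and 73.2 CPM on day 30, against 118, 141 and 153 CPM on day 0 (log2 fold change -0.87 ± 0.12 SE, adjusted p = 6.29e-05). PSMD7, its inactive partner, fell furthest of these 8 genes. PSMD7 had 74.4, 73.6 and 58.9 CPM on day 30, against 129, 149.9 and 174 CPM on day 0 (log2 fold change -1.13 ± 0.14 SE, adjusted p = 2.83e-05). PSMD3, PSMD11, PSMD6 and PSMD13 had log2 fold changes of -1.06, -0.99, -0.90 and -0.79, and PSMD12 and PSMD8 had -0.55 and -0.41. SEM1, a small lid subunit whose symbol lies outside the naming rule, had 33.8, 32.1 and 25.9 CPM on day 30, against 133, 145 and 141 CPM on day 0 (log2 fold change -2.18 ± 0.13 SE, adjusted p = 6.20e-08).

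**Figure D2:**
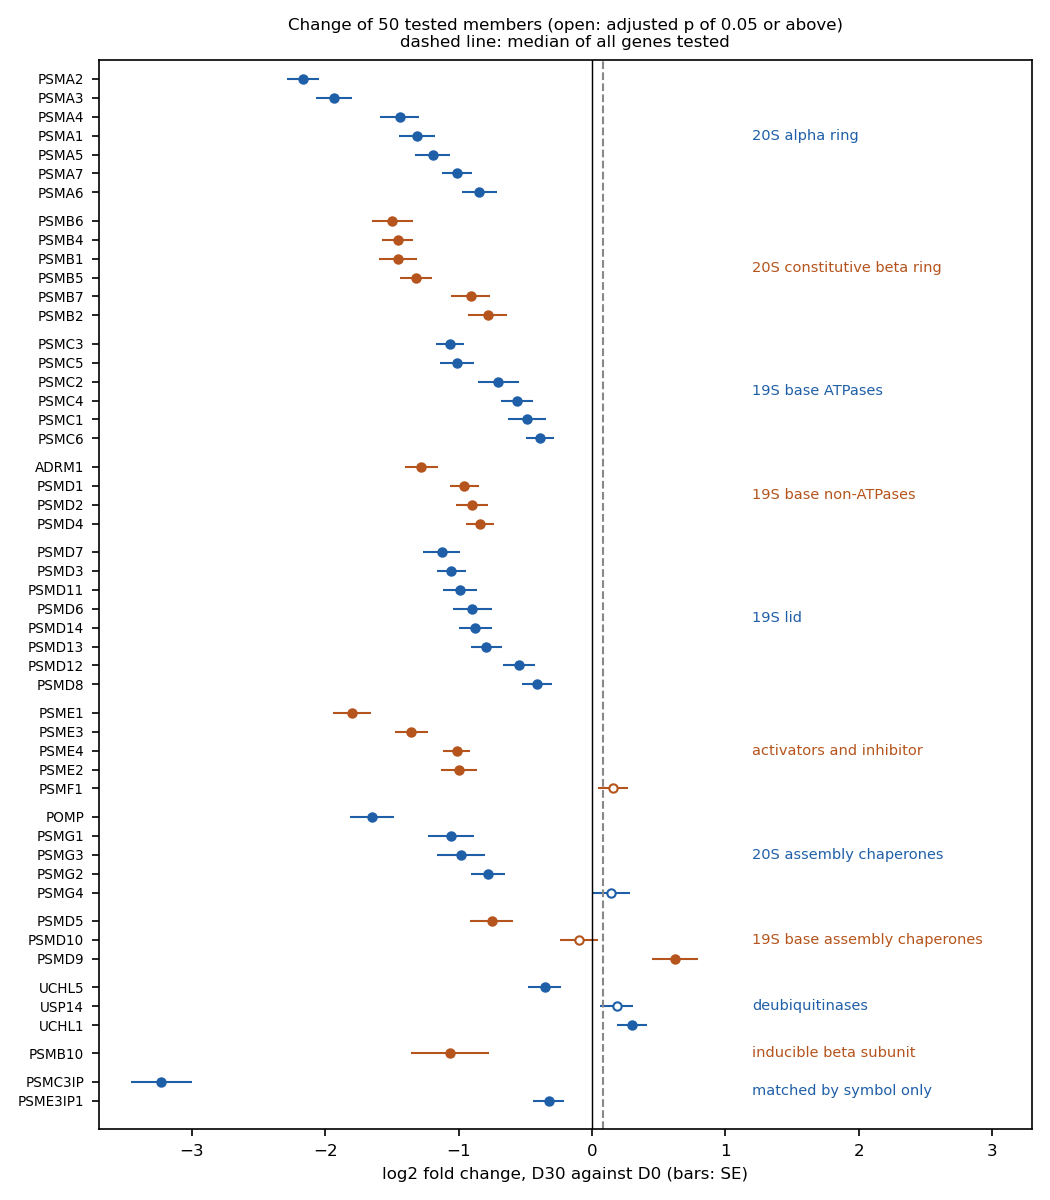
Log2 fold change of day 30 against day 0 for the 50 tested members with bars of 1 SE, sorted within each role; filled points passed the test and open points did not, and the dashed line marks the median of all genes tested at 0.08. Every 20S and 19S subunit lies left of 0, from -2.17 for PSMA2 to -0.39 for PSMC6, and the right-hand points are PSMD9, UCHL1, USP14, PSMF1 and PSMG4.

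The balance between core and cap differed between the days in these libraries. The 13 tested 20S genes had a median log2 fold change of -1.32, or 40.1% of the day 0 level. At least 2-fold falls were found in 10 of them, where 24.7% of all genes tested fell as far. Summed over the 20S genes the level was 639.6 ± 58.5 CPM on day 30, against 1589.5 ± 176 CPM on day 0 (SD, n = 3 each). Summed over the 18 genes of the 19S particle it was 1326 ± 42.0 CPM on day 30, against 2365 ± 257 CPM on day 0 (SD, n = 3 each). The 20S sum had 40.2% of its day 0 level and the 19S sum 56.1%. The ratio of the summed 20S CPM to the summed 19S CPM was 0.509, 0.485 and 0.451 on day 30 and 0.665, 0.682 and 0.669 on day 0. All 3 day 30 ratios lay below all 3 day 0 ratios, and this difference was not tested. Day 30 replicate 3 had the lowest ratio. The ratios also depend on how reads shared by PSMA2, PSMA1 and PSMA6 with their readthrough entries were assigned. The 19S sum leaves out the lid subunit SEM1, which averaged 30.6 CPM on day 30 and 139.6 CPM on day 0. In the 20S sum PSMB3 was close to 0. Ratios with SEM1 added were not computed.

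**Figure D3:**
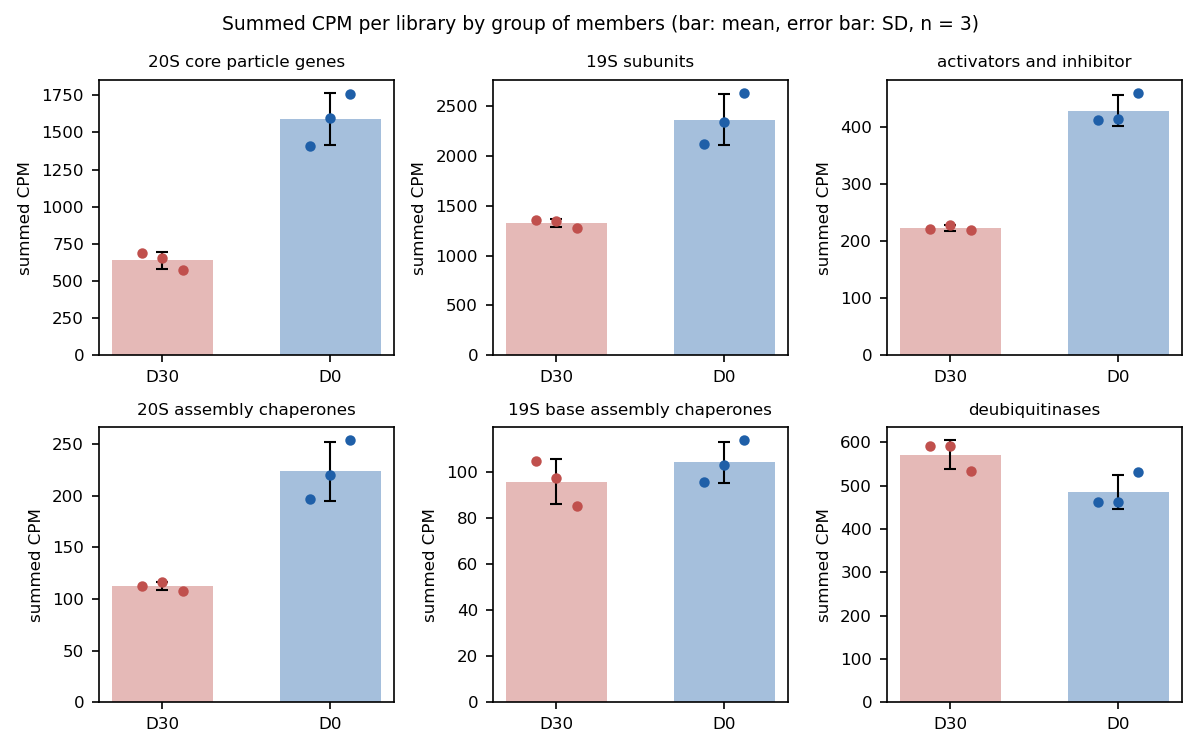
Summed CPM of each group of members in each library, with a panel for each group, day 30 left of day 0, a point for each library, and bars with error bars for the mean and SD. The sums of 20S and 19S genes separate by day, while the sums of the 19S base assembly chaperones lie close together at 95.6 ± 9.65 CPM on day 30, against 104 ± 9.03 CPM on day 0 (SD, n = 3 each).

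Levels of different genes were compared per kilobase of the longest principal transcript in GENCODE release 29, as CPM divided by that length (RPKM). The median RPKM of the tested 20S genes was 32.1 to 35.7 over the day 30 libraries and 91.0 to 116 on day 0, and that of the 19S genes was 32.8 to 35.4 on day 30 and 50.0 to 64.7 on day 0. By this measure the 20S genes stood above the 19S genes on day 0 and near them on day 30. The spread among the 20S genes of a library was alike on both days, with an SD of log2 RPKM of 0.86 to 0.90. These levels depend on the transcript length used and, for PSMA2, PSMA1 and PSMA6, on how reads shared with their readthrough entries were assigned. On day 30 those entries held 757, 914 and 1251 counts, beside 701, 825 and 1011.5 for the genes. The day 0 counts were 2463, 1456 and 2111, beside 2548, 1671 and 1456. Medians with these reads added were not computed.

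The activators PSME1 and PSME2 form the 11S cap, PSME3 forms the nuclear one and PSME4 is the large activator PA200, while PSMF1, also called PI31, was first described as an inhibitor. All 4 activator genes fell, where 36.8% of all genes tested were lower, and PSMF1 did not pass the test. PSME1, which is induced by interferon gamma in many cells, fell furthest. PSME1 had 10.9, 12.0 and 10.4 CPM on day 30, against 34.9, 39.2 and 42.6 CPM on day 0 (log2 fold change -1.80 ± 0.14 SE, adjusted p = 7.18e-07). PSME4 had 87.5, 95.7 and 92.1 CPM on day 30, against 192, 174 and 190.5 CPM on day 0 (log2 fold change -1.01 ± 0.10 SE, adjusted p = 5.63e-06). PSME3 and PSME2 had log2 fold changes of -1.35 and -0.99. PSMF1 had 57.1, 56.6 and 55.3 CPM on day 30, against 47.2, 48.8 and 55.6 CPM on day 0 (log2 fold change 0.16 ± 0.11 SE, adjusted p = 0.226), with overlapping groups. With libraries scaled by total counts alone PSMF1 passed the test, at a log2 fold change of 0.25 (adjusted p = 0.0427).

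Of the 5 chaperones of 20S assembly, 4 fell, where 36.8% of all genes tested were lower, and PSMG4 did not pass the test. POMP completes the assembly of beta rings and is degraded as the first substrate of the new particle. POMP (ENSG00000132963.9, chr13:28659104-28678925, plus strand) had 31.6, 33.7 and 27.9 CPM on day 30, against 77.3, 96.3 and 121 CPM on day 0 (log2 fold change -1.65 ± 0.17 SE, adjusted p = 5.06e-06). PSMG1 and PSMG2, which pair to build the alpha ring, had log2 fold changes of -1.06 and -0.78. PSMG3, the partner of PSMG4, had 16.3, 14.4 and 9.63 CPM on day 30, against 27.9, 26.3 and 26.7 CPM on day 0 (log2 fold change -0.98 ± 0.18 SE, adjusted p = 0.000483), whereas PSMG4 had 26.1, 27.4 and 31.7 CPM on day 30, against 28.4, 25.1 and 23.1 CPM on day 0 (log2 fold change 0.15 ± 0.14 SE, adjusted p = 0.359). PSMG4 shares 174 exon bases on the opposite strand with the tubulin gene TUBB2B, whose counts were 12165 on day 30 and 6833 on day 0, against 785 and 584 for PSMG4. It also shares 1388 on that strand with SLC22A23, which had 832 counts on day 30 and 1130 on day 0. The strand setting of the counting was not given in the sources used here, and the part of either neighbour in this value was not tested.

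The 3 chaperones of the 19S base did not move together. PSMD5 fell, PSMD10 did not pass the test and PSMD9 rose. PSMD5 had 12.9, 15.3 and 10.4 CPM on day 30, against 22.9, 21.8 and 21.4 CPM on day 0 (log2 fold change -0.75 ± 0.16 SE, adjusted p = 0.00159). PSMD10, also known as the oncoprotein gankyrin, had 76.5, 67.1 and 57.9 CPM on day 30, against 61.3, 72.4 and 82.1 CPM on day 0 (log2 fold change -0.09 ± 0.14 SE, adjusted p = 0.563), and its sign turned with libraries scaled by total counts alone. PSMD9 (ENSG00000110801.14, chr12:121888731-121918297, plus strand) had 15.1, 14.7 and 17.0 CPM on day 30, against 11.3, 8.72 and 10.1 CPM on day 0 (log2 fold change 0.62 ± 0.17 SE, adjusted p = 0.00664), with all day 30 libraries above all day 0 libraries. It was the only one of the assembly factors to rise. Both of its promoter matches to the element core are printed above, and the assembly factors PSMD5, PSMG1 and PSMG2 had the core too and fell. PSMD9 shares 436 exon bases on the same strand with the neighbouring gene CFAP251, which had 584 counts on day 30 and 62 on day 0, against 430.5 and 230.5 for PSMD9, and the part of these reads in the rise was not tested.

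UCHL5 and USP14 are the deubiquitinases that bind the proteasome reversibly, and UCHL1 is an abundant neuronal ubiquitin hydrolase that is no subunit of the particle. UCHL1 rose, UCHL5 fell and USP14 did not pass the test. UCHL1 (ENSG00000154277.13, chr4:41256413-41268455, plus strand) had 483, 485 and 432 CPM on day 30, against 352, 363 and 421 CPM on day 0 (log2 fold change 0.30 ± 0.11 SE, adjusted p = 0.033). It had the highest level of all members on both days, at 398 RPKM on day 30 and 323 RPKM on day 0. UCHL5 had 41.1, 33.0 and 34.2 CPM on day 30, against 43.9, 48.2 and 46.5 CPM on day 0 (log2 fold change -0.36 ± 0.13 SE, adjusted p = 0.0248). USP14 had 66.9, 72.0 and 67.0 CPM on day 30, against 66.0, 51.9 and 63.2 CPM on day 0 (log2 fold change 0.18 ± 0.12 SE, adjusted p = 0.188), and its day 30 libraries all lay above its day 0 libraries by a narrow margin. The calls of UCHL1 and UCHL5 did not hold when single libraries were left out. UCHL1 was no longer called without day 0 replicate 1 (adjusted p = 0.133) or replicate 2 (0.155), or without day 30 replicate 1 (0.104) or replicate 2 (0.109). UCHL5 was no longer called without day 0 replicate 2 (adjusted p = 0.0673) or day 30 replicate 2 (0.130) or replicate 3 (0.0746). Among the other deubiquitinases listed, which do not belong to the proteasome, 5 of 11 tested were lower and 4 higher, from USP9X at -1.70 to CYLD at 1.93. The shares over all genes tested were 36.8% lower and 39.8% higher.

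The pair matched by symbol alone both fell. PSMC3IP, also called HOP2, acts in meiotic recombination. PSMC3IP had 1.54, 2.34 and 1.51 CPM on day 30, against 17.2, 17.1 and 18.7 CPM on day 0 (log2 fold change -3.23 ± 0.23 SE, adjusted p = 3.14e-07), the largest fall of any member. It shares 770 exon bases on the opposite strand with MLX. PSME3IP1, which binds the PSME3 activator, had 67.0, 64.2 and 53.6 CPM on day 30, against 74.2, 75.8 and 82.2 CPM on day 0 (log2 fold change -0.33 ± 0.12 SE, adjusted p = 0.0277), and it was no longer called without day 0 replicate 3 (adjusted p = 0.0667) or without day 30 replicate 2 (0.0626) or replicate 3 (0.103). Among antisense transcripts named after members, PSMA3-AS1 rose with a log2 fold change of 0.79 (adjusted p = 0.000298) and PSMG3-AS1 with 1.15 (0.00105), while PSMD6-AS2 had 0.01 (0.983).

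The regulators of proteasome genes did not share 1 direction. Of 12 listed, 7 were lower, 2 higher and 3 did not pass the test, with a median log2 fold change of -0.52. The shares over all genes tested were 36.8% lower and 39.8% higher. NFE2L1 itself had 238, 264 and 287 CPM on day 30, against 307, 310.4 and 311 CPM on day 0 (log2 fold change -0.24 ± 0.11 SE, adjusted p = 0.0675), which did not pass the test. Its protease DDI2, which cleaves NFE2L1 into its active form, fell with a log2 fold change of -1.19, while NGLY1, which removes its sugars, had a log2 fold change -0.15 ± 0.12 SE, adjusted p = 0.259. The related factor NFE2L2, the oxidative stress regulator, fell with a log2 fold change of -0.92, and NFE2L3 had 4.63, 11.8 and 7.17 CPM on day 30, against 81.3, 132 and 125 CPM on day 0 (log2 fold change -3.80 ± 0.30 SE, adjusted p = 7.85e-07). STAT3 rose furthest of the list, with 320.0, 294 and 301 CPM on day 30, against 102, 121 and 113 CPM on day 0 (log2 fold change 1.44 ± 0.11 SE, adjusted p = 5.71e-07).

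**Figure D4:**
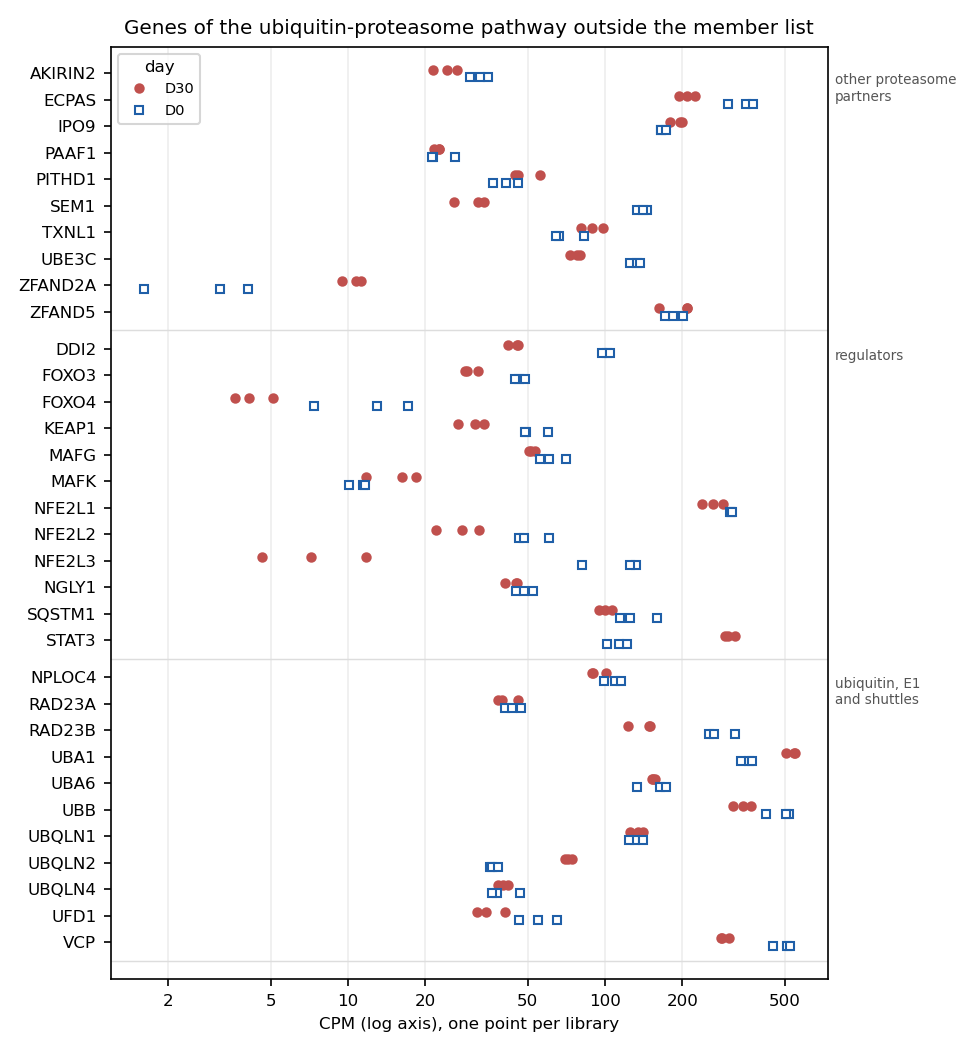
CPM of pathway genes outside the member list in each library on a log axis, with day 30 as filled circles and day 0 as open squares. SEM1, NFE2L3 and RAD23B lie lower on day 30 in every library, and STAT3, ZFAND2A and UBQLN2 lie higher.

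Of 10 proteasome partners outside the naming rule, 4 were lower and 2 higher, with a median log2 fold change of 0.01. Over all genes tested 36.8% were lower and 39.8% higher, so the lower share of these partners was near that of all genes. Beside SEM1, ECPAS, which holds core and cap together, fell with a log2 fold change of -0.72, as did UBE3C, a ligase bound to the particle, with -0.78, and AKIRIN2, which brings proteasomes into the nucleus, with -0.43. ZFAND2A, the arsenite-induced proteasome partner AIRAP, rose, with 10.7, 11.3 and 9.44 CPM on day 30, against 3.19, 4.07 and 1.60 CPM on day 0 (log2 fold change 1.85 ± 0.30 SE, adjusted p = 0.000201). Among the ubiquitin, activating enzyme and shuttle factor genes reported here, 4 of 11 tested were lower and 2 higher, with a median of -0.08. Here too the lower share was near the 36.8% of all genes tested. RAD23B, a shuttle factor that carries ubiquitinated proteins to the proteasome, had 149.7, 148 and 123 CPM on day 30, against 253, 265 and 321 CPM on day 0 (log2 fold change -0.99 ± 0.13 SE, adjusted p = 3.94e-05). UBB, which encodes polyubiquitin, fell with a log2 fold change of -0.49 (adjusted p = 0.00353). UBA1, the main activating enzyme, rose with 0.57, and UBQLN2, a shuttle factor mutated in motor neuron disease, had 74.3, 71.4 and 69.8 CPM on day 30, against 35.7, 36.3 and 38.4 CPM on day 0 (log2 fold change 0.97 ± 0.11 SE, adjusted p = 1.11e-05).

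Interferon and antigen presentation genes, the setting in which immunoproteasomes are made, had a summed level of 151 to 176 CPM over the day 30 libraries, against 229.7 to 259 CPM over the day 0 libraries. Of 11 tested of 18 listed, 6 were lower and 1 higher, with a median log2 fold change of -0.62. The shares over all genes tested were 36.8% lower and 39.8% higher. IFIT1 fell furthest, with 0.103, 0.529 and 0.944 CPM on day 30, against 1.53, 2.62 and 2.71 CPM on day 0 (log2 fold change -2.25 ± 0.54 SE, adjusted p = 0.00278). It was near the floor, with 13 counts in all on day 30 and 52 on day 0. ISG15, with 104 and 318 counts, had a log2 fold change of -1.89 (adjusted p = 1.15e-05). IRF9 rose, with 16.3, 11.9 and 9.81 CPM on day 30, against 3.82, 4.65 and 4.18 CPM on day 0 (log2 fold change 1.60 ± 0.24 SE, adjusted p = 0.000118). TAP1, TAP2, TAPBP and HLA-E had 0 counts in all 6 libraries and, like PSMB8 and PSMB9, belong to the major histocompatibility complex.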

How the data were processed

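Expected counts per gene, that is, read counts with fractions of reads, were deposited by the authors in 1 table for 6 libraries of H9 cells, 3 on day 30 and 3 on day 0 of differentiation. The unit was judged by the numbers themselves, since 83.7% of entries above 0 were whole and most of the rest were simple fractions. Libraries were made with a stranded total RNA kit after ribosomal RNA depletion, per the labels' protocols. Per the submitters' processing notes, the genome build was hg38 and FastQC 0.11.9 was used. Aligner, counter and strand setting were not given in the sources used here. How reads of overlapping genes were divided can change single members.

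Gene types and positions came from GENCODE release 29, which held 94.3% of entries. Counts were rounded to whole numbers, filtered with filterByExpr, scaled by TMM and tested with edgeR 4.0.16 (R 4.3.3), 2-sided, with Benjamini-Hochberg adjustment over all 18040 genes tested and a threshold of 0.05. Each SE was taken as the size of the log2 change over the root of its F statistic. The procedure was tested on simulated data in which few genes changed. In these libraries 76.6% of genes tested were called, so the simulation does not cover changes this widespread. RPKM were computed from CPM and transcript length. DESeq2 1.42.0 and limma 3.58.1 (voom) were alternatives. The ratio of PSMB10 to PSMB7 was tested by exact permutation with 0.5 added to each count. The planned ratios of PSMB8 to PSMB5 and PSMB9 to PSMB6 could not be computed, since PSMB8 and PSMB9 had no reads. Promoters were the first RefSeq window of each symbol.

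The members and lists were chosen with earlier results of these data known. Members named in full were a fixed set of key subunits and, in each role, the largest passing fall and rise and the member nearest to 0 that did not pass; of each pathway list, the largest passing fall and rise, with other members of the lists added for their role. Total counts of 5013643 to 12924842 a library set the precision. Some genes of a pathway list are not reported here.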

Additional observations from a re-analysis of the deposited data

How the results depend on the processing

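Across 16 alternatives, 45 of 50 tested members kept their direction and side of the threshold, 43 of them called. The count of lower members was 42 to 44 in all of them, and the members' median log2 fold change was -1.03 to -0.86. The count of higher members was 2, it was 3 with total counts alone, where PSMF1 was added, and it fell to 1 with no filter on low counts and with the replicate number as a block, since UCHL1 was no longer called (adjusted p = 0.0878 and 0.0770), and was 1 to 2 when a library was left out. UCHL5 and PSME3IP1 each lost their call in 7 alternatives. PSMD10 changed sign to 0.0019 with total counts alone and to 0.022 without day 30 replicate 3, and leaving out a library gave -0.23 to 0.022; it never passed the test. The log2 ratio of PSMB10 to PSMB7 changed sign to 0.0027 without day 30 replicate 3 (exact p = 1.0), and leaving out a library gave -0.45 to 0.0027. Adding readthrough reads gave -0.0082. With a smallest possible p of 0.1 this test could not pass the threshold. The cause of these changes was not tested. Same-numbered libraries of the 2 days deviated with correlations of 0.075, -0.0040 and -0.052, so the numbers do not show a pairing; with the replicate block the ratio was -0.26 (exact p = 0.5), and 42 members were lower and 1 higher. Adding the reads of readthrough genes was chosen after seeing the data. Among tested members the SE was largest for PSMB10, at 0.29.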
